A study of Mus musculus with 10 samples.

Results

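The 10 genes followed here in visceral white adipose tissue (WAT) carry its endocrine signals: the secreted proteins *Adipoq*, *C1qtnf3*, *Lep*, *Retn*, *Cfd*, *Rbp4*, *Rarres2* and *Nampt*, and the adiponectin receptors *Adipor1* and *Adipor2*. They were chosen by symbol from a fixed list of adipokines and adiponectin receptors. That rule uses no measured value, but the members were chosen with earlier results of these data known. These genes are 10 of the 47937 genes listed in every library. All 10 passed the filter on low counts in every comparison. The libraries came from C57BL/6 mice with 2 alleles of *Mof* (Mof+/+) or with 1 (Mof+/-), a germline heterozygote in which every tissue carries the change. *Mof* encodes a histone acetyltransferase and is listed as *Kat8*. On standard diet (SD, 15% fat) there were 3 libraries of each genotype, and on high-fat diet (HFD, 60% fat) 2 of each. By their descriptions the SD mice were 8 weeks old and the HFD mice 27 weeks old, with 20 weeks of HFD behind them. Age and diet therefore cannot be told apart in these data, and the study's text conflicts with these values, giving a longer time on HFD and other ages, so the weeks printed here are uncertain. Its methods name male mice. The comparisons ask what the loss of 1 *Mof* allele and what HFD do to the endocrine output of WAT.

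Adipocytes release hormones that report fat stores and tune insulin action, appetite and inflammation. Leptin rises with fat mass and acts on the brain to limit food intake, whereas adiponectin, which improves insulin sensitivity through AdipoR1 and AdipoR2, is typically lower in obesity. Adipsin, the product of *Cfd*, is the complement protease that starts the alternative pathway and is known to be low in several mouse models of obesity.

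The total count on genes ran from 1044355 to 17171947 per library, and the library labelled HFD Mof+/- replicate 1 had both the lowest total and the fewest genes with a count, 9155 against 13777 to 18965 in the other 9. In that library 16 skeletal muscle markers took 8.46% of counts, against 0.203% in HFD Mof+/- replicate 2 and at most 0.0137% elsewhere, and the mitochondrial genome took 26.9%. Of the libraries that serve as reference, SD Mof+/+ replicate 2 had a sum of 1001 CPM for myelin and glia markers against at most 141 CPM in the other 9, and SD Mof+/+ replicate 3 a sum of 412 CPM for lymphocyte markers against at most 48.2 CPM. *Kat8* stood at 20.4 to 21.5 CPM (counts scaled to a library total of 1000000) on SD in Mof+/+ and at 11.5 to 18.8 CPM in Mof+/-. On HFD it was 18.1 and 19.2 CPM in Mof+/+ and 20.1 and 10.5 CPM in Mof+/-, so HFD Mof+/- replicate 1 was not below Mof+/+. *Xist*, which marks female cells, had 46.1 to 139 CPM in the 3 SD Mof+/- libraries and no count in the other 7, and 4 Y-linked genes had no count in SD Mof+/- and a sum of 77.6 to 225 CPM in the other 7. Genotype on SD, and diet in Mof+/-, thus cannot be told apart from sex by these markers. The same holds for the difference between the genotypes' diet changes, which uses all 4 groups. Genotype on HFD and diet in Mof+/+ compare Y-positive libraries only. For replicate 3 of SD Mof+/+ and of SD Mof+/-, the heading of the count column named the opposite genotype; the sample labels set the groups here. All 10 adipocyte markers had counts in every library, so the labelled tissue showed its defining markers.

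The promoters of 4 members are shown because these genes carry the differences described below: *Adipoq* and *Retn* between genotypes on SD, *Lep*, *Cfd* and *Retn* between diets. Each line holds the 250 bases before the RefSeq start on GRCm38.p6, plus strand, 5′ to 3′, and capitals mark a match on either strand to the CCAAT box, to the TATAA box or to the C/EBP factor site TTGCGCA. The windows are *Adipoq* at chr16:23146286-23146535, *Retn* at chr8:3655520-3655769, *Lep* at chr6:29059971-29060220 and *Cfd* at chr10:79890603-79890852.
Adipoq: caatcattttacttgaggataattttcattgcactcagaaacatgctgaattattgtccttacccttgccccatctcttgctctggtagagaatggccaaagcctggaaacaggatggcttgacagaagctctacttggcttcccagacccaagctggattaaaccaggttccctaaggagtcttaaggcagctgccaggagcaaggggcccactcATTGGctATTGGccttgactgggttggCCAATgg
Retn: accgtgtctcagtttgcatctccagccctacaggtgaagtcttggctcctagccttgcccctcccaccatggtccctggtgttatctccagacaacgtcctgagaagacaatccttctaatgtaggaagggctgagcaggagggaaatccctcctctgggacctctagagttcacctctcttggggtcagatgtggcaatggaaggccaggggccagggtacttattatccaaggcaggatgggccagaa
Lep: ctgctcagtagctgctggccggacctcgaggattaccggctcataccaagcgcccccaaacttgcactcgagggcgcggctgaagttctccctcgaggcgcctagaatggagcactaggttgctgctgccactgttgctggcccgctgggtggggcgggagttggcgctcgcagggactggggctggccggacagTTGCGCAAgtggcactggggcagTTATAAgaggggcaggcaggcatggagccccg
Cfd: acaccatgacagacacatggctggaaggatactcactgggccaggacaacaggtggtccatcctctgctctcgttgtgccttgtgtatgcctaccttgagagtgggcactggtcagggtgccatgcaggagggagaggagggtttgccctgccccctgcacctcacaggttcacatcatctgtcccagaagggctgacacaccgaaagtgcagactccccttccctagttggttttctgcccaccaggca
The *Adipoq* window held CCAAT 3 times, at positions -34 and -27 on the minus strand and at -7 on the plus strand, counted from the start. The *Lep* window held TATAA in overlapping matches on both strands at -32 and -31 and TTGCGCA in overlapping matches on both strands at -55 and -54. The *Retn* and *Cfd* windows held none of these 3, nor AGGTCA (a nuclear receptor half-site) nor CACGTG (an E-box). Among all 32851 RefSeq windows of this length, 33.8% held CCAAT, 22.8% TATAA, 14.0% AGGTCA, 6.02% CACGTG and 1.69% TTGCGCA. Windows were found for 9 members, 11 in all. Among those not printed, *Adipor1* and *Rbp4* held CCAAT, *Rbp4* and *C1qtnf3* TATAA, and *Nampt* AGGTCA. The motifs were chosen after the sequences had been read, and a match is a description of letters only.

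On GRCm38, *Adipoq* lies at chr16:23146536-23158028, *C1qtnf3* at chr15:10952332-10980150, *Lep* at chr6:29060220-29073877, *Retn* at chr8:3655770-3660110, *Cfd* at chr10:79890853-79892655 and *Nampt* at chr12:32819545-32853349, all on the plus strand. *Rbp4* lies at chr19:38116629-38125281, *Rarres2* at chr6:48569696-48572789 and *Adipor2* at chr6:119353150-119417704 on the minus strand, and *Adipor1* at chr1:134415378-134433351 on the plus strand. Levels per kilobase of exon set the members in order within a group. In SD Mof+/+, *Cfd* came first at 12543 ± 1563 CPM per kb (SD, n = 3), followed by *Adipoq* at 1927 ± 393 and *Retn* at 1085 ± 254. *Lep* stood at 354 ± 177, *Rbp4* at 193 ± 63.9, *Rarres2* at 97.5 ± 17.9 and *Adipor2* at 84.0 ± 14.3 CPM per kb. The lowest were *Adipor1* at 37.0 ± 6.11, *Nampt* at 31.3 ± 2.81 and *C1qtnf3* at 0.585 ± 0.628 CPM per kb. The libraries of neighbours overlapped for *Lep* and *Rbp4*, for *Rarres2* and *Adipor2*, and for *Adipor1* and *Nampt*, and not for the other neighbours. In HFD Mof+/+ the order was headed by *Adipoq* at 1631 ± 267 (n = 2) and *Lep* at 1612 ± 340 CPM per kb, whose libraries overlapped, followed by *Cfd* at 627 ± 69.7.

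**Figure D1:**
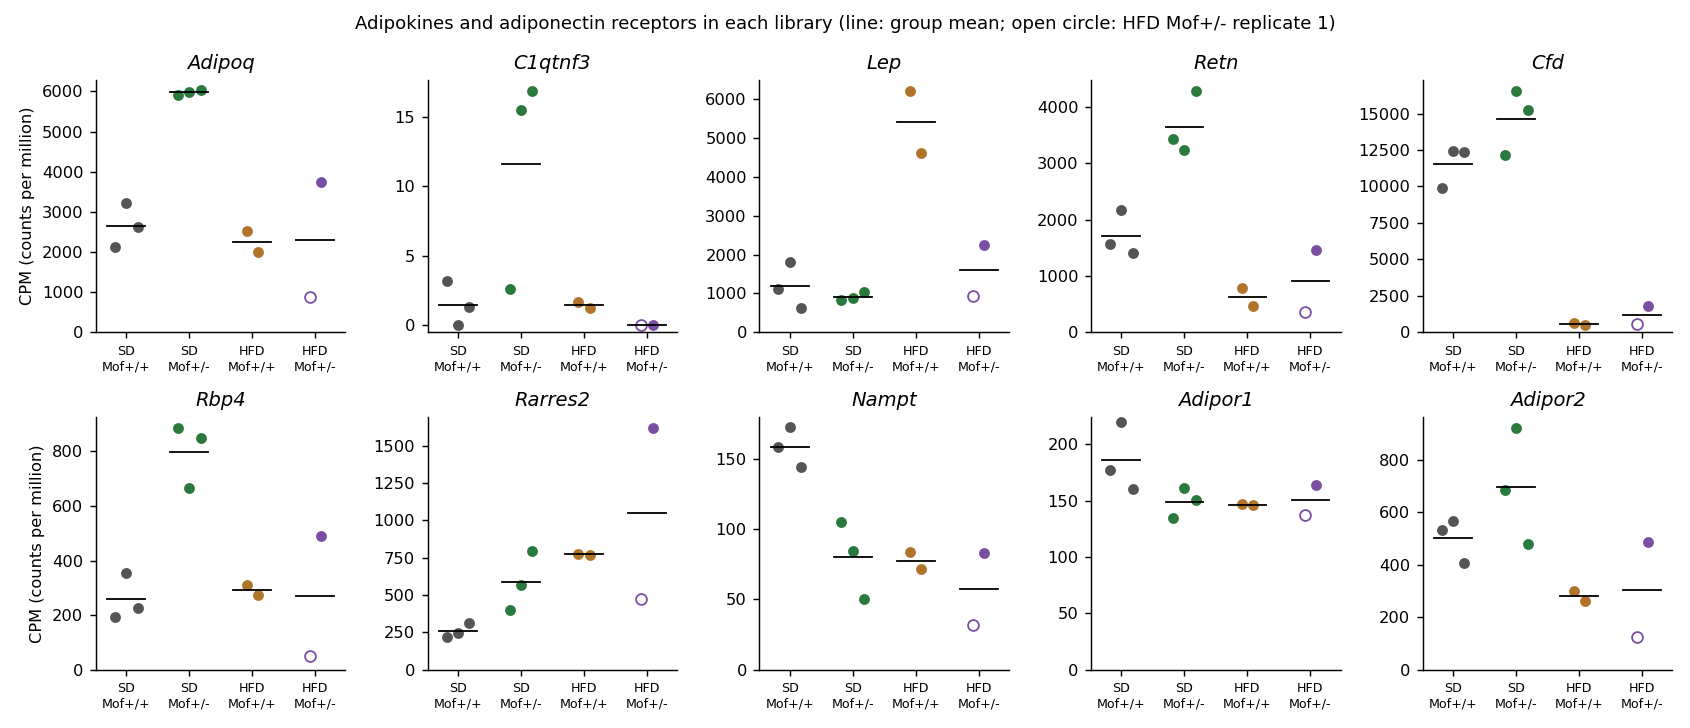
CPM of the 10 genes in each of the 10 libraries, 1 panel per gene, with points for libraries, a line for the group mean and an open circle for HFD Mof+/- replicate 1. *Adipoq* and *Rbp4* are highest in the 3 SD Mof+/- libraries, *Lep* in the 2 HFD Mof+/+ libraries, and *Cfd* is low in all 4 HFD libraries.

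On HFD, Mof+/+ WAT held 4.93-fold more *Lep* RNA and 18.3-fold less *Cfd* RNA than on SD, and *Rarres2* was higher while *Retn* and *Nampt* were lower. Of the 10 members 5 passed an adjusted p of 0.05 (edgeR quasi-likelihood test), 2 higher and 3 lower. Of all 14939 genes tested 9.75% passed, 6.02% higher and 3.73% lower. At an unadjusted p under 0.05, 6 members and 28.4% of all genes passed, and DESeq2 called 6 members and 13.7% of genes. Without SD Mof+/+ replicates 1, 2 or 3, 2, 3 and 6 members were called, against 1.63%, 5.87% and 14.9% of all genes, and without HFD Mof+/+ replicates 1 or 2 the counts were 2 and 1, against 1.49% and 0.384%. With libraries grouped by the column headings no member and 0.0% of genes were called (*Cfd* adjusted p = 0.109), and in a single fit of all 10 libraries only *Cfd* was (adjusted p = 0.0071), with 0.893% of genes. The median log2 fold change was -0.17 over the members and -0.04 over all genes. Bulk RNA cannot tell fewer cells of a type from less RNA per cell, here and in every comparison that follows. Fold changes are after TMM scaling, so they differ somewhat from the ratio of the CPM values.

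*Cfd* had 9901, 12413 and 12380.5 CPM in SD Mof+/+ replicates 1 to 3 and 624 and 533 CPM in the 2 HFD Mof+/+ libraries. Every HFD library was below every SD library by a wide margin. The log2 fold change was -4.20 ± 0.26 (SE), with an edgeR adjusted p of 0.0018. It stayed past the threshold with any 1 of the 5 libraries left out, with log2 fold changes from -4.30 to -4.08 and adjusted p from 0.0036 to 0.030. Where an HFD Mof+/+ library is left out, here and for the genes that follow, the lone HFD library is assumed to vary like the SD libraries.

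*Lep*, the gene of leptin, had 1115, 1812 and 634 CPM in SD Mof+/+ and 6212 and 4599 CPM in HFD Mof+/+. The groups did not overlap, although the SD libraries themselves were widely spread. The log2 fold change was 2.30 ± 0.42, with an edgeR adjusted p of 0.0236. The call was lost without SD Mof+/+ replicate 1 (adjusted p = 0.0915) and without either HFD library (0.124 and 0.144), with log2 fold changes of 2.26, 2.10 and 2.52.

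*Rarres2* encodes chemerin, a chemoattractant and adipokine, and had 219, 247 and 311 CPM on SD and 773 and 771 CPM on HFD in Mof+/+. Its HFD libraries were nearly equal and above all SD libraries. The log2 fold change was 1.70 ± 0.20, with an edgeR adjusted p of 0.0073, and 0.0813 without HFD Mof+/+ replicate 2. The gene overlaps *Lrrc61* on the opposite strand, and the library kit does not mark strand, so reads of the shared part may have been counted for either gene or for neither.

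*Retn*, the gene of resistin, had 1573, 2165 and 1400 CPM in SD Mof+/+ and 782 and 476 CPM in HFD Mof+/+. The groups did not overlap. The log2 fold change was -1.33 ± 0.31, with an edgeR adjusted p of 0.0441. That call was lost without SD Mof+/+ replicate 1 or 2 and without either HFD library (adjusted p from 0.0778 to 0.390), and with the replicate block (0.0573).

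*Nampt*, whose product visfatin is also the enzyme that recycles nicotinamide into NAD, had 158, 173 and 144 CPM in SD Mof+/+ and 83.4 and 71.6 CPM in HFD Mof+/+. All HFD libraries were below all SD libraries. The log2 fold change was -0.91 ± 0.19, with an edgeR adjusted p of 0.0307. It was not past the threshold without SD Mof+/+ replicate 1 or 2, without either HFD library (adjusted p from 0.0557 to 0.355) or with the replicate block (0.0543). *Nampt* overlaps the non-coding gene *Gdap10* on the same strand, so the counting could split their reads.

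The adiponectin axis did not pass the test between diets in Mof+/+. *Adipoq*, the gene of adiponectin, had 2135, 3220 and 2628 CPM on SD and 2513 and 1991 CPM on HFD, and the groups overlapped (log2 fold change -0.12 ± 0.25, edgeR adjusted p = 0.799). *Adipor1* had 177, 220 and 161 CPM on SD and 147 and 146 on HFD, without overlap, at a log2 fold change of -0.22 ± 0.20 and an adjusted p of 0.530. *Adipor2* had 533, 569 and 406 CPM on SD and 302 and 262 on HFD, also without overlap, at -0.71 ± 0.22 and 0.0887. In all, 2 members lay higher and 5 lower without overlap, against 21.0% and 28.2% of all genes tested.

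*Rbp4*, the retinol carrier of plasma, had 193, 356 and 228 CPM on SD and 312 and 274 on HFD in Mof+/+, where the groups overlapped (log2 fold change 0.30 ± 0.29, edgeR adjusted p = 0.547). *C1qtnf3*, a secreted relative of adiponectin, had 25, 0 and 10 counts on SD and 26 and 20 on HFD, which is at most 3.19 CPM. At that depth no difference was detectable (log2 fold change 0.10 ± 1.60, adjusted p = 0.975).

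**Figure D2:**
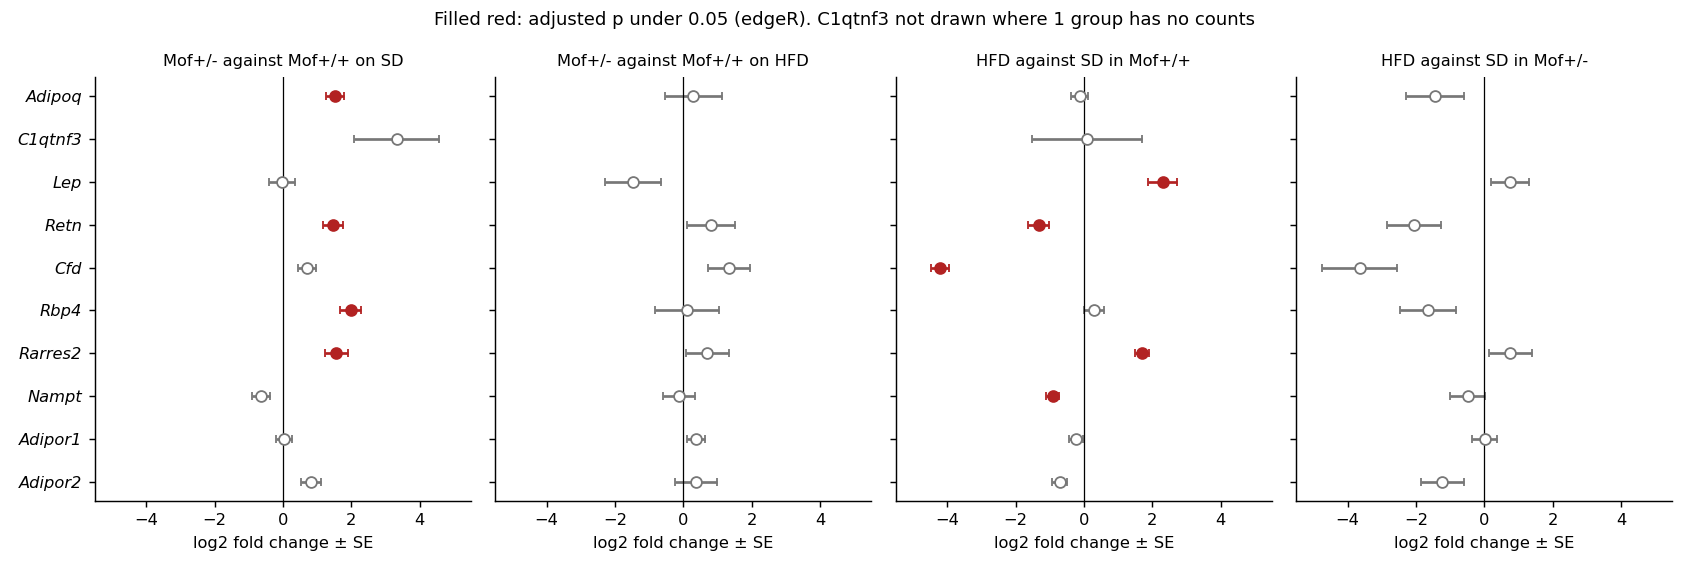
Log2 fold change (x axis) with its SE (bars) of the 10 genes in the 4 pairwise comparisons, from edgeR, with filled red points where the adjusted p was under 0.05. The 4 calls between genotypes on SD all lie above 0, the 5 calls between diets in Mof+/+ lie on both sides, and there is none in the HFD or Mof+/- panels.

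Macrophage markers moved with HFD in Mof+/+: the summed level of 8 markers was 1138 to 1942 CPM on SD and 5159 to 7003 CPM on HFD, 6 of the 8 were called higher, and none was at 0 in these libraries. The summed level of 10 adipocyte markers was 20166 to 25617 CPM on SD and 29018 to 30258 CPM on HFD, with 1 marker called higher. The sum of 5 endothelial markers was 960 to 2115 CPM on SD and 408 to 467 CPM on HFD, with 3 called lower, and that of 6 adipose progenitor markers 2110.5 to 3012 CPM and 1765 to 1783 CPM, with none called. The part of these cells in the members' values was not tested. Relative to this adipocyte sum, *Lep* was 5.09% ± 2.0 on SD (SD, n = 3) and 18.2% ± 3.3 on HFD (n = 2), and *Cfd* 51.6% ± 8.7 and 1.95% ± 0.16. *Retn* was 7.51% ± 0.82 and 2.11% ± 0.67, *Nampt* 0.702% ± 0.025 and 0.261% ± 0.020, and *Rarres2* 1.17% ± 0.33 and 2.60% ± 0.072. For each of these 5 the groups did not overlap on this scale, with an exact two-sided permutation p of 0.2, the smallest that 3 against 2 allows. *Adipoq* did not overlap on this scale either, at 11.8% ± 1.8 on SD and 7.58% ± 1.0 on HFD (exact permutation p = 0.2), although it did in CPM. Nor did *Adipor2*, at 2.22% ± 0.20 and 0.949% ± 0.067, or *Adipor1*, at 0.819% ± 0.034 and 0.495% ± 0.011, each with the same exact p. No share of all genes was computed on this scale, where the sum itself was higher on HFD without overlap.

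On SD, Mof+/- WAT held more *Adipoq*, *Retn*, *Rbp4* and *Rarres2* RNA than Mof+/+ WAT, by 2.75-fold to 3.97-fold. Of the 10 members these 4 passed an adjusted p of 0.05, all higher, and 5.24% of all 13864 genes tested passed, 3.33% higher and 1.91% lower. At an unadjusted p under 0.05, 8 members and 25.7% of all genes passed, and DESeq2 called 7 members and 10.1% of genes. The median log2 fold change was 1.14 over the members and -0.07 over all genes. The SD Mof+/+ libraries enter both this comparison and the one between diets in Mof+/+, so the results are not independent. Genotype and the sex markers given above cannot be told apart here.

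*Adipoq* had 5923, 5983 and 6035 CPM in the 3 SD Mof+/- libraries, against the 2135 to 3220 CPM of SD Mof+/+. The Mof+/- libraries were nearly equal, and all were above every other library of the series. The log2 fold change was 1.53 ± 0.27, with an edgeR adjusted p of 0.0301. *Retn* had 3429, 3232 and 4287 CPM in SD Mof+/-, above the 1400 to 2165 CPM of SD Mof+/+, with a log2 fold change of 1.46 ± 0.29 and an edgeR adjusted p of 0.0375.

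*Rbp4* had 884, 666 and 848 CPM in SD Mof+/- and 193 to 356 CPM in SD Mof+/+. The groups were far apart, and the log2 fold change of 1.99 ± 0.31 was the largest of the 4 (edgeR adjusted p = 0.0246). *Rarres2* had 396, 565 and 797 CPM in SD Mof+/-, a wider spread, but none of them reached down to the 219 to 311 CPM of SD Mof+/+. Its log2 fold change was 1.56 ± 0.33, with an edgeR adjusted p of 0.0395, and its reads may be shared with *Lrrc61* as stated above. Markers of hepatocytes, which also make RBP4, had a sum of 51.5 to 428 CPM in SD Mof+/- and of 6.58 to 19.2 CPM in SD Mof+/+, and their part in the *Rbp4* value was not tested.

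*Lep* stood at 834, 880 and 1028 CPM in SD Mof+/-, inside the range of SD Mof+/+ (log2 fold change -0.02 ± 0.38, edgeR adjusted p = 0.983). *Cfd* stood at 12175, 16519 and 15248 CPM, where the lowest library overlapped with SD Mof+/+ (0.71 ± 0.27, adjusted p = 0.144). *Nampt* stood at 105, 84.4 and 50.6 CPM, below all SD Mof+/+ libraries, and did not pass the test (-0.64 ± 0.27, adjusted p = 0.184). *C1qtnf3* had 45, 161 and 113 counts, 2.62 to 16.8 CPM, overlapping with SD Mof+/+ (3.33 ± 1.24, adjusted p = 0.136).

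The receptors did not pass the test either. *Adipor1*, the receptor linked to AMP kinase in muscle, had 135, 161 and 151 CPM in SD Mof+/- (log2 fold change 0.04 ± 0.24, edgeR adjusted p = 0.930). *Adipor2*, the form dominant in liver, had 685, 923 and 481 CPM (0.82 ± 0.29, adjusted p = 0.121). Both overlapped between genotypes. Of the 10 members 4 lay higher and 1 lower without overlap in CPM, against 9.71% and 30.6% of all genes tested.

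The 4 calls on SD were sensitive to single libraries and to processing. None of the 4 was called without SD Mof+/+ replicate 1, SD Mof+/+ replicate 3 or SD Mof+/- replicate 2, and only *Rbp4* without SD Mof+/+ replicate 2, while the directions held. In those fits 0.13%, 0.512%, 0.115% and 0.239% of all genes were called. Without SD Mof+/- replicates 1 or 3 all 4 were called, with 6.89% and 4.51% of all genes. The libraries also differed in how their levels varied with transcript length (Spearman's rho over 15857 genes 0.31 to 0.38 in SD Mof+/+ and -0.37 to 0.12 in SD Mof+/-). With that trend removed the log2 fold changes were 0.71 for *Adipoq*, 0.68 for *Retn*, 1.15 for *Rbp4* and 1.14 for *Rarres2*, with edgeR adjusted p of 0.20, 0.190, 0.0929 and 0.0547, and 2.47% of all genes were called. With libraries grouped by the column headings they were 0.34, -0.0067, 0.32 and -0.063, and no member and 0.0% of genes were called. In a single fit of all 10 libraries none of the 4 was called (adjusted p from 0.0807 to 0.120), with 1.22% of genes, and with the replicate block *Retn* was lost (0.0509) and the other 3 were called, with 3.09% of genes.

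**Figure D3:**
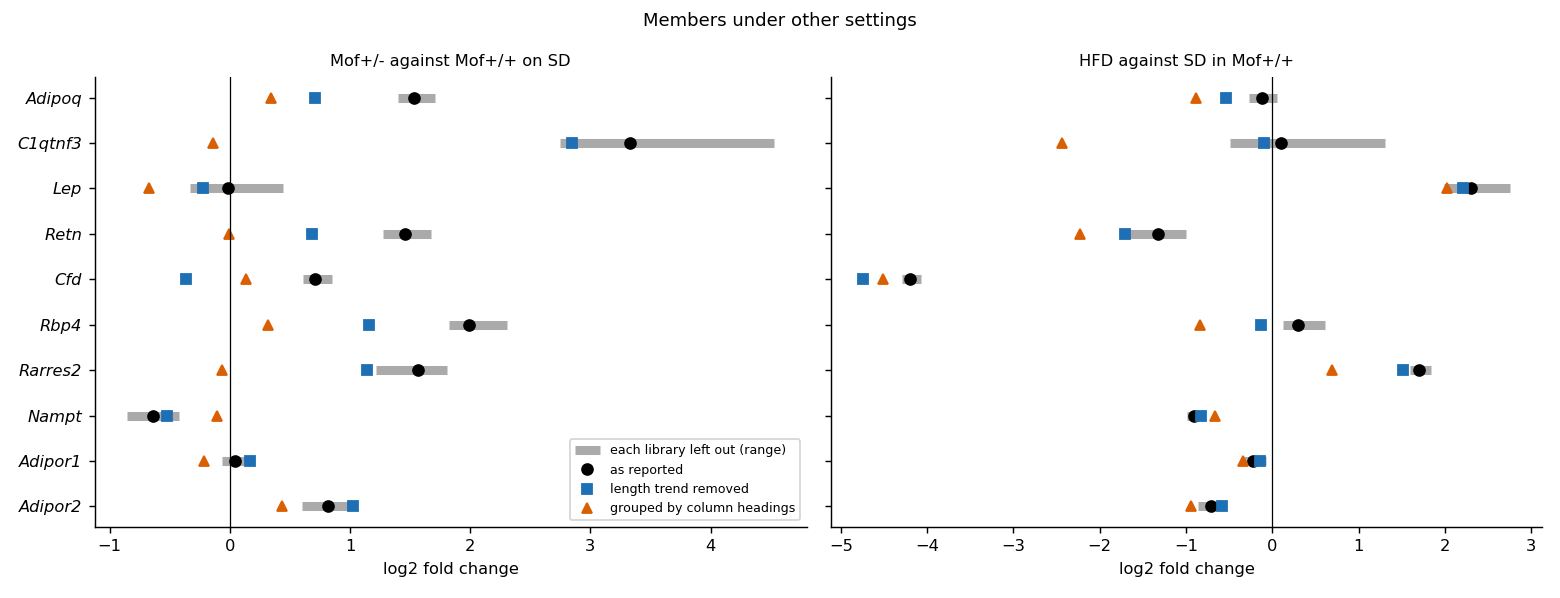
Log2 fold change (x axis) of the 10 genes between genotypes on SD (left) and between diets in Mof+/+ (right), as reported, with the transcript length trend removed, with libraries grouped by column headings, and the range with each library left out. *Cfd* and *Lep* between diets keep their side under all of these, whereas *Retn* and *Rarres2* between genotypes fall to about 0 under the column headings.

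The sum of adipocyte markers was higher in Mof+/- on SD, at 20166 to 25617 CPM in Mof+/+ and 43760 to 67890 CPM in Mof+/-. Of the 10 markers 9 were higher and 1 lower, 4 were called higher and none was at 0. Their median log2 fold change was 0.43, and the sum gives most weight to the markers with most counts. Endothelial markers had a sum of 960 to 2115 CPM in Mof+/+ and 235 to 369 CPM in Mof+/-, with 3 of 5 called lower. The sum of 5 mesothelial markers was 14.3 to 52.3 CPM in Mof+/+ and 152 to 319 CPM in Mof+/-, with 3 called higher, and that of 6 myelin and glia markers 96.3 to 1001 CPM and 36.4 to 54.3 CPM, with 2 called lower. The part of these cells in the members' values was not tested. Relative to the adipocyte sum, *Adipoq* was 11.8% ± 1.8 in Mof+/+ and 11.7% ± 2.5 in Mof+/- (SD, n = 3 each, exact two-sided permutation p = 0.9). *Retn* was 7.51% ± 0.82 and 6.98% ± 0.78 (p = 0.4 in the exact permutation test), *Rarres2* 1.17% ± 0.33 and 1.09% ± 0.16 (exact p = 0.8) and *Rbp4* 1.13% ± 0.26 and 1.56% ± 0.41 (exact p = 0.2), all overlapping. *Lep* was lower without overlap, 5.09% ± 2.0 against 1.76% ± 0.21, as was *Nampt*, 0.702% ± 0.025 against 0.164% ± 0.084. *Cfd* (51.6% ± 8.7 against 28.3% ± 6.2), *Adipor1* (0.819% ± 0.034 against 0.290% ± 0.061) and *Adipor2* (2.22% ± 0.20 against 1.40% ± 0.63) were also lower without overlap. Each of these 5 had an exact permutation p of 0.1, the smallest that 3 against 3 allows. The share of all genes lower on this scale was not computed. As the sum itself was higher in Mof+/-, any gene that rose less than the sum lies lower here. The trend with transcript length given above was not removed from these values.

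**Figure D4:**
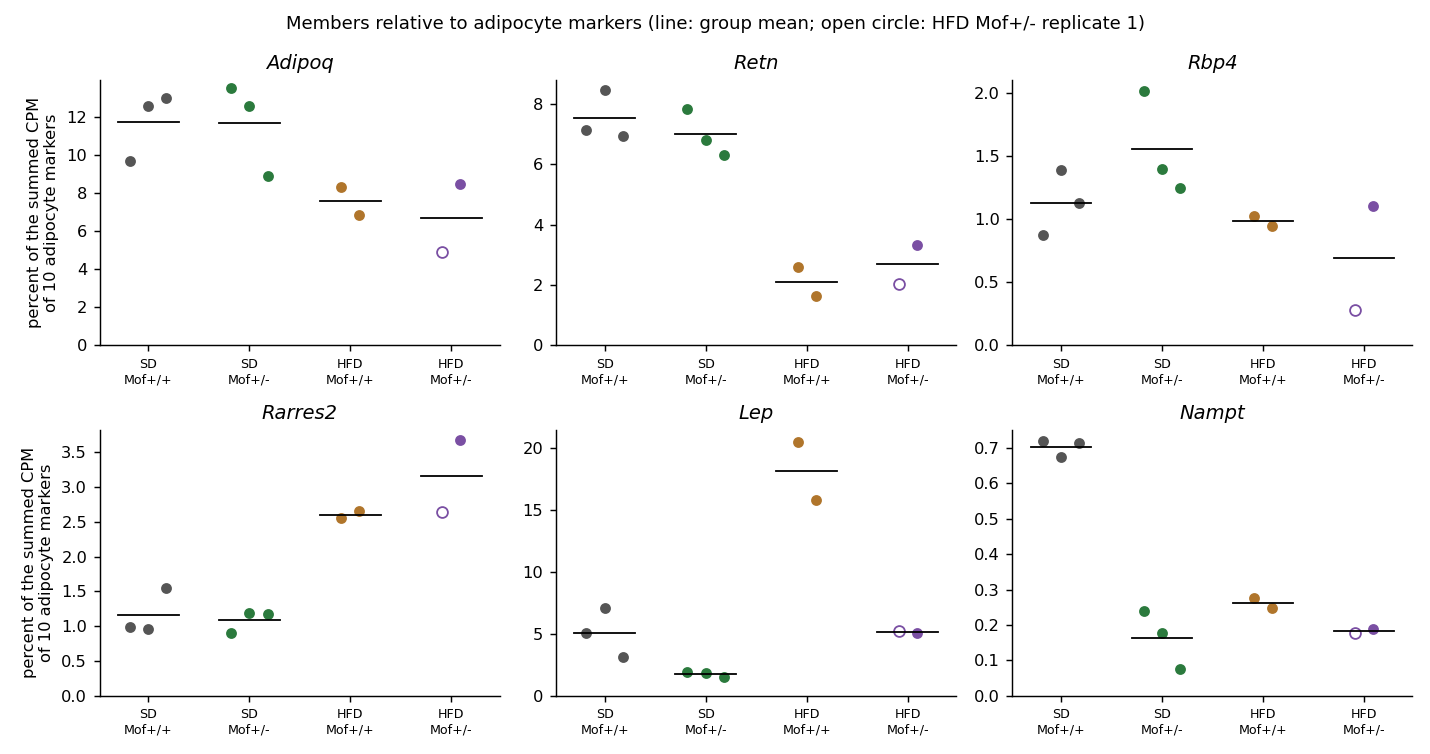
*Adipoq*, *Retn*, *Rbp4*, *Rarres2*, *Lep* and *Nampt* as percent of the summed CPM of 10 adipocyte markers in the same library, with points for libraries, a line for the group mean and an open circle for HFD Mof+/- replicate 1. *Adipoq*, *Retn* and *Rarres2* overlap between genotypes on SD, and *Lep* is highest in HFD Mof+/+ at 15.8% and 20.5%.

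On HFD, no member passed the test between genotypes, nor did any of the 14120 genes tested (0.0%) in edgeR. At an unadjusted p under 0.05, 1 of the 10 members and 12.3% of all genes passed, and DESeq2 called 198 genes (0.973%) and no member. The member was *C1qtnf3*, which had no count in either Mof+/- library, so that its p compares with 0 and says nothing about size. *Lep* lay lower without overlap, *C1qtnf3* was listed lower at 0, and no member lay higher, against 45.6% lower and 8.82% higher of all genes. *Lep* had 6212 and 4599 CPM in Mof+/+ and 938 and 2246 CPM in Mof+/-, without overlap and lower in both Mof+/- libraries (log2 fold change -1.48 ± 0.81, edgeR adjusted p = 0.623). *Cfd* had 624 and 533 CPM against 578 and 1842, *Adipoq* 2513 and 1991 against 879 and 3738, and *Retn* 782 and 476 against 366 and 1462. In each of these 3 the Mof+/- libraries lay on both sides of at least 1 Mof+/+ library.

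The same spread held for the rest. *Rbp4* had 312 and 274 CPM in HFD Mof+/+ against 50.7 and 488 in HFD Mof+/-, *Rarres2* 773 and 771 against 472 and 1620, and *Nampt* 83.4 and 71.6 against 31.6 and 83.2. *Adipor2* had 302 and 262 CPM against 124 and 487, while *Adipor1* varied least, at 147 and 146 against 137 and 164. HFD Mof+/- replicate 1 was the lower library of its pair for all 9 members that had counts there. *C1qtnf3* had 26 and 20 counts in HFD Mof+/+ and none in either HFD Mof+/- library. A count of 0 allows up to 3.53 CPM in HFD Mof+/- replicate 1 and up to 0.667 CPM in replicate 2 (95% exact Clopper-Pearson, counting error only), so no fold is given against them, and the limit in replicate 1 lies above both HFD Mof+/+ libraries.

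The result turned on which HFD Mof+/- library was used. Without replicate 1, the lone library being assumed to vary like the Mof+/+ pair, 7 members and 27.2% of all genes were called, with *Lep* at -1.10, *Adipoq* at 0.90, *Rbp4* at 0.91 and *Adipor2* at 0.96 on the log2 scale. Without replicate 2, 5 members and 47.9% of all genes were called, with *Lep* at -2.13, *Adipoq* at -0.96, *Rbp4* at -2.13 and *Adipor2* at -0.80, where the median over all genes was -1.48. *Lep* was thus lower in Mof+/- with either library, and the other 3 changed side. The macrophage sum was 5159 and 7003 CPM in HFD Mof+/+ and 1504 and 3353 CPM in HFD Mof+/-. The adipose progenitor sum was 1783 and 1765 CPM against 870 and 1097 CPM. The brown adipocyte sum was 14.7 CPM in each Mof+/+ library against 486 and 102 CPM, and the muscle sum 80.5 and 89.5 CPM against 84560 and 2030 CPM. The part of these cells in the members' values was not tested. Relative to the adipocyte sum, *Lep* was 20.5% and 15.8% in HFD Mof+/+ and 5.25% and 5.10% in HFD Mof+/-, so on that scale the 2 Mof+/- libraries were close (exact permutation p = 0.333, the smallest that 2 against 2 allows).

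In Mof+/-, HFD against SD gave no call among the members or among the 13610 genes tested (0.0%) in edgeR. At an unadjusted p under 0.05, 3 of 10 members, all lower, and 8.57% of all genes passed. The 3 members were *Cfd*, *Retn* and *C1qtnf3*; the last had no count in either HFD library, so that its p compares with 0. In the same comparison DESeq2 called 477 genes (2.33%) and 3 members. *Cfd* had 12175, 16519 and 15248 CPM on SD and 578 and 1842 CPM on HFD, a log2 fold change of -3.65 ± 1.09 (edgeR adjusted p = 0.440). *Retn* had 3232 to 4287 CPM on SD and 366 and 1462 on HFD (-2.07 ± 0.79, adjusted p = 0.533). Both were lower in each HFD library than in each SD library, as were *Adipoq* and *Rbp4*. *C1qtnf3* was also listed lower in each, but the limit of its 0 in HFD Mof+/- replicate 1, 3.53 CPM, lies above the lowest SD library, 2.62 CPM. Among all genes tested 17.7% lay lower without overlap. No member lay higher without overlap, against 9.88% of all genes.

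In this comparison the adipocyte marker sum was 43760.3 to 67890 CPM on SD and 17883 and 44006 CPM on HFD, with overlap. The adipose progenitor sum was 1687 to 4411 CPM on SD and 870 and 1097 CPM on HFD, without overlap. The skeletal muscle sum was at most 122 CPM on SD and 84560.3 and 2030 CPM on HFD, also without overlap. The brown adipocyte sum was higher on HFD without overlap, at 486 and 102 CPM. The mesothelial sum (152 to 319 CPM on SD) and the hepatocyte sum (51.5 to 428 CPM on SD) were lower on HFD without overlap. No marker of any of these lists was called. The part of these cells in the members' values, including that of hepatocytes in *Rbp4*, was not tested. Relative to the adipocyte sum, *Cfd* (28.3% ± 6.2 on SD and 3.71% ± 0.67 on HFD), *Retn* (6.98% ± 0.78 and 2.68% ± 0.90), *Adipoq* (11.7% ± 2.5 and 6.70% ± 2.5) and *Rbp4* (1.56% ± 0.41 and 0.697% ± 0.58) were lower on HFD without overlap. On that scale *Lep* (1.76% ± 0.21 and 5.18% ± 0.10), *Rarres2* (1.09% ± 0.16 and 3.16% ± 0.74) and *Adipor1* (0.290% ± 0.061 and 0.570% ± 0.28) were higher without overlap, and *Nampt* and *Adipor2* overlapped. HFD Mof+/- replicates 1 and 2 were far apart for *Adipor1*, at 0.766% and 0.373% against 0.222% to 0.339% on SD. For *Rbp4* they were at 0.284% and 1.11% against 1.25% to 2.02% on SD. Each of the 7 had an exact permutation p of 0.2, the smallest that 3 against 2 allows. Here too the share of all genes on this scale was not computed.

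*Lep* in Mof+/- stood at 834 to 1028 CPM on SD and at 938 and 2246 CPM on HFD, with overlap and a log2 fold change of 0.76 ± 0.55 (edgeR adjusted p = 0.764). The difference between the genotypes' diet changes was -1.55 ± 0.69 for *Lep* (unadjusted p = 0.0455, adjusted p = 0.393), and 0.54 ± 0.68 for *Cfd* (adjusted p = 0.789). No member passed this interaction test, and 0.0881% of 15897 genes did. The interaction cannot be told apart from sex either, because only SD Mof+/- had *Xist* counts and no Y-linked counts. At an unadjusted p under 0.05, 2 members, *Lep* and *C1qtnf3* (at 0 in HFD Mof+/-), and 12.4% of all genes passed, and DESeq2 called 505 genes and no member. Its median over all genes was -0.41 with TMM and -0.31 with DESeq2 size factors, so values are to be read relative to that. Without HFD Mof+/- replicate 2, 5 members were called in the interaction and 5 between diets in Mof+/-, against 17.7% and 13.8% of all genes.

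Ratios between members of the same library do not depend on its scaling. They still carry the trend with transcript length given above where the 2 genes differ in length. *Lep* has 3354 bases of exon, *Adipoq* 1381 and *Cfd* 922, and the part of that trend in the ratios was not tested. *Lep* over *Adipoq*, each as CPM per kb, was 0.215, 0.232 and 0.0994 in SD Mof+/+ and 0.0580, 0.0606 and 0.0702 in SD Mof+/-. It was 1.02 and 0.951 in HFD Mof+/+ and 0.440 and 0.247 in HFD Mof+/-. The ratio was higher on HFD in each genotype, 5.77-fold in Mof+/+ and 5.26-fold in Mof+/-, and lower in Mof+/- on each diet, 2.72-fold on SD and 2.98-fold on HFD. No 2 groups overlapped in these 4 comparisons, and each exact two-sided permutation p was the smallest its group sizes allow, 0.2, 0.2, 0.1 and 0.333, which cannot reach 0.05. The comparisons that use SD Mof+/- cannot be told apart from sex, as stated above.

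*Cfd* over *Adipoq* was 5.77 to 7.06 in SD Mof+/+, 3.08 to 4.14 in SD Mof+/-, 0.372 and 0.401 in HFD Mof+/+ and 0.986 and 0.738 in HFD Mof+/-. This ratio was lower on HFD in both genotypes without overlap (17.0-fold and 4.27-fold). *Adipor2* over *Adipor1* was 2.12 to 2.53 in SD Mof+/+ and 2.68 to 4.81 in SD Mof+/-, without overlap (exact permutation p = 0.1). It was 1.72 and 1.51 in HFD Mof+/+ and 0.758 and 2.49 in HFD Mof+/-, where the groups overlapped.

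**Figure D5:**
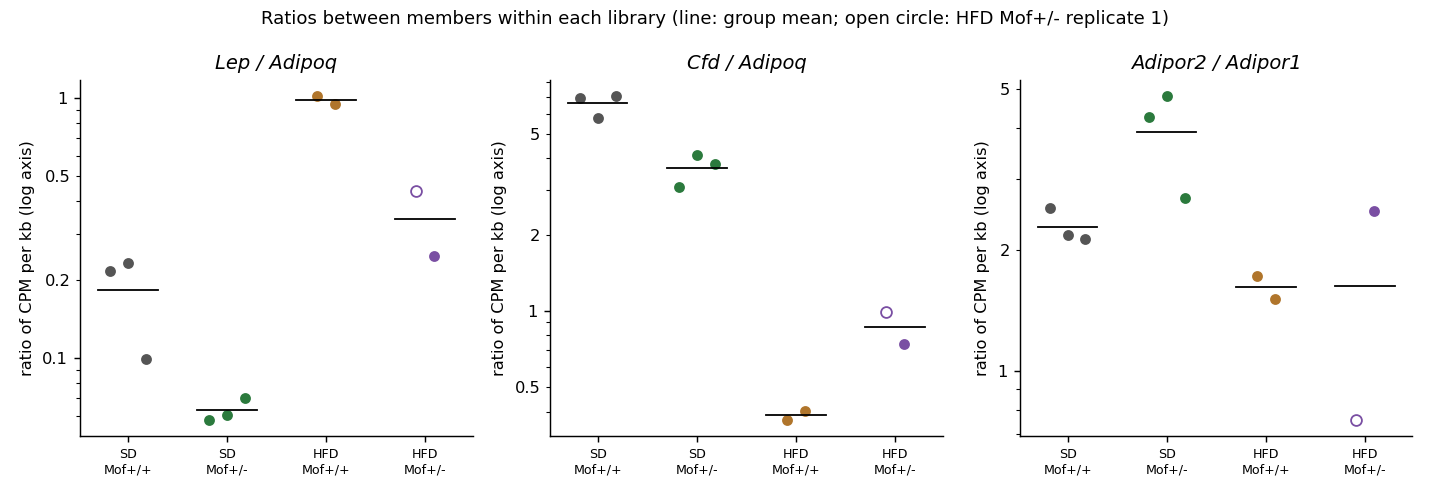
Ratios of CPM per kb within each library on log axes for *Lep* over *Adipoq*, *Cfd* over *Adipoq* and *Adipor2* over *Adipor1*, with points for libraries, a line for the group mean and an open circle for HFD Mof+/- replicate 1. *Lep* over *Adipoq* is lowest in SD Mof+/-, at 0.0580 to 0.0702, and highest in HFD Mof+/+, at 0.951 and 1.02.

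Receptors and partners of these hormones were counted from a list of 37 genes. Between diets in Mof+/+, 35 were tested and 4 passed in edgeR, 1 higher and 3 lower, against 9.75% of all genes. *Lepr*, the leptin receptor, fell from a mean of 10.8 to 0.511 CPM (log2 fold change -4.25 ± 0.92, adjusted p = 0.0364). *Insr*, the insulin receptor, fell from 117 to 53.4 CPM (-1.01 ± 0.23, adjusted p = 0.0428), and *Srebf1*, a factor that drives lipid synthesis, from 594 to 158 CPM (-1.79 ± 0.31, adjusted p = 0.0202). *C3ar1*, the receptor of complement fragment C3a that is also found on macrophages, rose from 19.5 to 185 CPM (3.37 ± 0.40, adjusted p = 0.0070). *Cfd* acts on complement factor B, and in Mof+/+ *Cfb* stood at 18.5 to 20.0 CPM on SD and 16.3 and 6.87 CPM on HFD, and *C3* at 1203 to 1606 CPM on SD and 1787 and 1502 CPM on HFD, neither past the test (adjusted p = 0.390 and 0.243). Of the 4 calls, 1, 3 and 4 held without SD Mof+/+ replicates 1, 2 or 3, and 1 and 0 without HFD Mof+/+ replicates 1 or 2.

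Between genotypes on SD, 34 of the 37 were tested and 4 passed in edgeR, 1 higher and 3 lower, against 5.24% of all genes. *Cdh13*, the T-cadherin that binds adiponectin on endothelium, fell from 97.8 to 10.6 CPM (log2 fold change -2.86 ± 0.56, adjusted p = 0.0359), in the libraries where endothelial markers were also lower, as given above. *Jak2*, the kinase of the leptin receptor, fell from 59.8 to 16.4 CPM (-1.52 ± 0.35, adjusted p = 0.0471), and *Srebf1* from 594 to 158 CPM (-1.57 ± 0.34, adjusted p = 0.0404). *Socs3*, an inhibitor of leptin receptor signalling, rose from 18.0 to 111 CPM (2.97 ± 0.56, adjusted p = 0.0325). Its Mof+/- libraries were at 222, 50.8 and 60.8 CPM, and without replicate 1, the highest, the log2 fold change was 2.04 ± 0.33 (adjusted p = 0.0279). All 4 held without SD Mof+/- replicate 1, 2 without SD Mof+/- replicate 3, and 0 without SD Mof+/- replicate 2 or any 1 of the SD Mof+/+ libraries. The chemerin receptor *Cmklr1* had 84.1 to 129 CPM in Mof+/+ and 105 to 151 CPM in Mof+/- and did not pass (0.77 ± 0.26, adjusted p = 0.109). On HFD, between diets in Mof+/- and in the interaction no gene of this list passed, with 2 of 34, 4 of 35 and 7 of 35 tested genes at an unadjusted p under 0.05, against 12.3%, 8.57% and 12.4% of all genes.

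Other secreted products of WAT were counted from a list of 33 genes. Between diets in Mof+/+, 27 were tested and 8 passed in edgeR, 5 higher and 3 lower, against 9.75% of all genes, 6.02% higher and 3.73% lower. Those higher on HFD were *Ccl2*, a monocyte chemoattractant (6.66 to 158 CPM, log2 fold change 4.69 ± 0.21), *Sfrp5*, a secreted Wnt inhibitor (12.3 to 20.3 CPM on SD, 424 and 353 CPM on HFD, 4.82 ± 0.27), and *Metrnl* (17.4 to 155 CPM, 3.28 ± 0.28). *Spp1*, the gene of osteopontin, rose from 7.30 to 57.1 CPM (3.09 ± 0.53), and *Angptl4*, an inhibitor of lipoprotein lipase, from 344 to 860 CPM (1.45 ± 0.24). Those lower were *Agt*, the gene of angiotensinogen (494 to 49.3 CPM, -3.21 ± 0.41), *Ogn* (223 to 82.6 CPM, -1.31 ± 0.25) and *Nrg4* (53.3 to 24.7 CPM, -0.99 ± 0.24). *Ccl2* and *Spp1* are also made by macrophages, whose markers were higher in the same libraries as stated above. *Ccl2*, *Sfrp5* and *Metrnl* held with any 1 library left out (a lone HFD library being assumed to vary like the SD ones), and of the 8 calls 3 held without HFD Mof+/+ replicate 2, 4 without HFD Mof+/+ replicate 1, and 5, 7 and 8 without SD Mof+/+ replicates 1, 2 or 3.

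Between genotypes on SD, 26 of the 33 were tested and 4 passed in edgeR, 3 higher and 1 lower, against 5.24% of all genes. *Retnla*, a relative of resistin, rose from 327 to 1017 CPM (log2 fold change 2.02 ± 0.36), *Metrnl* from 17.4 to 41.3 CPM (1.61 ± 0.30) and *Ccl2* from 6.66 to 28.2 CPM (2.46 ± 0.49). *Apln*, the gene of apelin, fell from 20.0 to 1.79 CPM (-3.12 ± 0.60). With libraries grouped by the column headings no gene was called, and *Retnla* and *Ccl2* turned, to log2 fold changes of -0.31 and -0.19. These 4 were named after their values had been seen. All 4 held without SD Mof+/- replicate 1 or 3, and 0 without SD Mof+/- replicate 2 or any 1 of the SD Mof+/+ libraries. In the other 3 comparisons no gene of this list passed, with 5 of 27 tested genes on HFD, 5 of 26 between diets in Mof+/- and 6 of 27 in the interaction at an unadjusted p under 0.05, against 12.3%, 8.57% and 12.4% of all genes.

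The genes closest in pattern to each member were taken as those with the highest Pearson correlation of log2 CPM over the 10 libraries, among 11443 genes with a mean of at least 5 CPM. The 10 points share 4 groups and each library's composition, so the correlations describe these libraries only. *Adipoq* was closest to *Pon3* (r = 0.98), to *Rbp4* (0.97) and to *Prnp* (0.97), so *Adipoq* and *Rbp4* were among each other's nearest 3 genes. The other neighbours of *Rbp4* were *Dbp* and *Apopt1*. *Lep* was closest to *Atp6v0a1* (0.97), *Olfm1* (0.94) and *Tuba1a* (0.94), and *Cfd* to *Gsta3* (0.97), *Cyp2e1* (0.96) and *Gpx3* (0.96). *Retn* was closest to *Gpat3* (0.98), an enzyme of triglyceride synthesis, *Selenbp1* and *Chst1*, and *Adipor2* to *Trap1* (0.97), *Por* and *Glb1l2*. *Rarres2* was closest to *Mrps14* (0.96), *Acaa2* and *Ffar2*, *Nampt* to *Lrp5* (0.98), *Polr2a* and *Adcy6*, *Adipor1* to *Pcnx4* (0.94), *Slc6a11* and *Zfp523*, and *C1qtnf3* to *Cetn3* (0.94), *Fundc2* and *Ovgp1*.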

How the data were processed

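mRNA-seq was performed on visceral WAT in 10 libraries with an Illumina TruSeq RNA v2 kit. The deposited values are raw counts per gene, without normalization, made by the authors in snakePipes with STAR as aligner (GRCm38) and featureCounts (Subread 1.5.0-p1) as counter. The annotation release and strand setting are not given in the sources used here. Of 47937 identifiers, 47224 matched a gene symbol with the version dropped, and exon lengths from GENCODE M21 (GRCm38) were found for 98.7%. Libraries were grouped by sample labels. CPM is the count over the library's total on genes. Totals of 1044355 to 17171947 set the precision, and exact intervals cover counting error only. Nothing in the sources ties libraries to further repeats, so p-values measure the spread between these libraries.

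Each pair of groups was tested in edgeR 4.0.16 (TMM, filterByExpr, quasi-likelihood test) fitted to the libraries compared, and the interaction to all 10, with Benjamini-Hochberg adjustment over all genes tested and a threshold of 0.05. Ratios were compared by exact two-sided permutation tests over libraries. Alternatives were DESeq2 1.42.0, its size factors, no filter on low counts, the replicate number as a block, TMM without muscle and mitochondrial genes, length offsets, grouping by column headings, 1 fit of all 10 libraries, and each library left out. Levels relative to adipocyte markers were added after seeing the data. So were the ratios of *Lep* to *Adipoq*, of *Cfd* to *Adipoq* and of *Adipor2* to *Adipor1*. Named were all 10 members, the called genes of both lists in the comparison with most calls, and the 3 nearest genes of each member; the members and lists were chosen with earlier results of these data known, and 2 listed genes are not reported here. The procedure was also run on simulated counts with a smaller spread than these libraries had, so that run does not show how it performs at their spread. Promoters came from RefSeq (GRCm38.p6). R 4.3.3, Python 3.11.15, pandas 2.3.3, scipy 1.17.1 and matplotlib 3.10.9 were used.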

Additional observations from a re-analysis of the deposited data

Results flagged for a closer look

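Several values moved in opposite directions without overlap, either between genotypes on the 2 diets or between diets in the 2 genotypes. The ratio of *Cfd* to *Adipoq* was lower in Mof+/- on SD (log2 difference -0.85) and higher on HFD (1.14), and *Cfd* relative to the adipocyte marker sum was lower on SD (-0.87) and higher on HFD (0.92). Between diets, *Adipor1* relative to that sum was lower on HFD than on SD in Mof+/+ (-0.73) and higher in Mof+/- (0.91). In HFD Mof+/- it was 0.766% in replicate 1, the library with most muscle marker counts, and 0.373% in replicate 2. In SD Mof+/- it was 0.222% to 0.339%. For these 3 ratios the difference between the effects was not tested.

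Of the listed genes, compared between genotypes, *C3* was higher in Mof+/- on SD (log2 fold change 1.30 ± 0.32) and lower on HFD (-0.97 ± 0.47), with an edgeR interaction adjusted p of 0.151. *Retnla* was at 2.02 ± 0.36 and -0.19 ± 0.31 (interaction adjusted p = 0.151), *Metrnl* at 1.61 ± 0.30 and -1.22 ± 0.48 (0.0971), and *Ccl2* at 2.46 ± 0.49 and -3.96 ± 1.20 (0.0780), so none of the 4 interactions passed 0.05. The SD groups of the genotypes also differ in the sex markers, and on HFD the sum of 8 macrophage markers was 5159 and 7003 CPM in Mof+/+ and 1504 and 3353 CPM in Mof+/-, without overlap; the part of either was not tested.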

How the results depend on the processing

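TMM without muscle and mitochondrial genes and DESeq2 size factors changed no direction of a named gene. Counts moved by over 1.5 times as follows, for members and then all genes, from 4 and 727 between genotypes on SD, 0 and 0 on HFD, 5 and 1457 between diets in Mof+/+, 0 and 0 in Mof+/- and 0 and 14 in the interaction. DESeq2 gave 7 and 2204, 198 genes, 2998 genes, 3 and 477, and 505 genes. Without the filter on low counts there were 1840 genes on SD, 2 members and 429 genes between diets in Mof+/-, and 380 genes in the interaction. A single fit of all 10 libraries gave 0 and 194, 1 gene, 1 and 142, and 1 and 189 in the 4 pairwise comparisons. Removing the length trend left 0 members and 342 genes on SD. Grouping by column headings left 0 members and 0 genes on SD, between diets in Mof+/+ and in the interaction. Causes were not tested. Leaving out 1 library gave 0 to 4 members and 17 to 1026 genes on SD, 0 to 7 and 92 to 7551 on HFD, 1 to 6 and 64 to 2230 between diets in Mof+/+, 0 to 5 and 0 to 2122 in Mof+/-, and 0 to 5 and 4 to 3163 in the interaction.

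Replicate numbers did not pair the libraries (same-number deviations correlated at 0.0053 to 0.0077 on SD). The replicate block gave 428 genes on SD, 200 on HFD, 245 between diets in Mof+/-, and 3 members between diets in Mof+/+. It turned *Lep* to 0.10 on SD and *Rbp4* to -0.52 on HFD.

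Other directions turned, as log2 fold changes. Under the column headings on SD: *Adipor1* -0.21, *Retn* -0.0067, *Rarres2* -0.063, *C1qtnf3* -0.14, *C3ar1* 0.65, *Ccl2* -0.19, *Sfrp5* -1.24 and *Retnla* -0.31. Under the headings between diets in Mof+/+: *Rbp4* -0.84, *C1qtnf3* -2.43, *Socs3* -0.78 and *Retnla* -1.44, and in the interaction *Retn* 0.71, *Rarres2* 0.67 and *Nampt* -0.12. Under length offsets: on SD *Cfd* -0.36, *Insr* 0.051 and *Ogn* -0.031, on HFD *Adipoq* -0.022 and *Rbp4* -0.21, between diets in Mof+/+ *Rbp4* -0.13, *C1qtnf3* -0.10 and *Retnla* -0.69. *Adipor1* between diets in Mof+/- was -0.0096 without the filter, -0.0048 under length offsets and -0.012 in the single fit.

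With 1 library left out, these spanned 0. On SD: *Adipor1* -0.066 to 0.20, *Lep* -0.33 to 0.44 and *C3ar1* -0.40 to 0.22. On HFD: *Adipoq* -0.96 to 0.90, *Adipor2* -0.80 to 0.96, *Retn* -0.39 to 1.38, *Rbp4* -2.13 to 0.91, *Rarres2* -0.32 to 1.24 and *Nampt* -0.90 to 0.27. Between diets in Mof+/+: *Adipoq* -0.27 to 0.054, *C1qtnf3* -0.49 to 1.30, *Socs3* -0.040 to 0.60 and *Retnla* -0.12 to 0.22, and in Mof+/- *Adipor1* -0.068 to 0.076 and *Rarres2* -0.23 to 1.33. In the interaction: *Adipor2* -1.68 to 0.14, *Cfd* -0.38 to 1.13 and *Nampt* -0.33 to 0.90.

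The depth of HFD Mof+/- replicate 1, 1044355 counts, limits low genes: *C1qtnf3* at 0 counts there allows up to 3.53 CPM (95% exact Clopper-Pearson).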

Other observations

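Several listed hormones, carriers and receptors were at or near the floor of detection in this WAT. *Itln1*, the gene of omentin, had 0.775 CPM in HFD Mof+/+ replicate 1 and no count in the other 9 libraries. *Serpina12*, the gene of vaspin, had no count in SD Mof+/+ and means of 0.0194 CPM in SD Mof+/-, 0.631 in HFD Mof+/+ and 1.08 in HFD Mof+/-. *Ttr*, the partner of RBP4 in plasma and a liver product, had 14.0 CPM in SD Mof+/- replicate 2 and no count in the other 9 libraries. Hepatocyte markers, a list of 6 that includes *Ttr* itself, were also highest in SD Mof+/-. Their sum was 428 CPM in replicate 2 and 62.4 and 51.5 CPM in replicates 1 and 3, against at most 19.2 in the other groups. Their part in the *Rbp4* value was not tested.

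Over the 10 libraries the Pearson correlation of log2 CPM with *Adipoq* was 0.97 for *Rbp4*, 0.91 for *Retn*, 0.87 for *Adipor2* and 0.69 for *Cfd*, but -0.20 for *Lep* and 0.18 for *Rarres2*. *Lep* with *Cfd* gave -0.70. These values describe libraries that share 4 groups, and carry no test.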
